A study of Mus musculus with 16 samples.

Results

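The loops described here are the long CDR3 loops of T cell receptor beta chains, those of 16 or more residues, counted from the conserved cysteine of the V segment to the conserved phenylalanine of the J segment, as deposited. They came from 8 T cell receptor libraries of tumour-infiltrating cells. Of 3876 distinct beta chains, 462 had a CDR3 of 16 or more residues, and these long chains were carried by 651 of 5760 cells with a beta chain. A distinct chain was a combination of V segment, J segment and CDR3 nucleotides within a library, and the beta chain with the most unique molecular identifiers (UMIs) stood for the cell.

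The tumours grew from Hepa1-6 cells, a mouse hepatoma line, implanted in the liver of C57BL/6 mice, and infiltrating cells were taken on day 5 or day 14. The CON group had the genotype CD4creMatr3WT/WT and the KO group CD4creMatr3fl/fl, so both carried a Cd4-driven Cre and they differed in the floxed Matr3 alleles. Cd4-driven Cre is active in the thymus before CD4 and CD8 T cells part, so it acts in both lineages. Matr3 encodes matrin 3, a nuclear matrix protein that binds RNA and DNA. Each of the 4 groups had 2 libraries, and no label states that the libraries of a group are from different mice. The p-values below then measure only the spread between libraries, which may be technical. The contig tables hold receptor chains alone, so the level of Matr3 could not be checked here and the age of the mice is not given in the sources used here.

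The beta chain CDR3 is built in the thymus by joining a V, a D and a J segment. Nucleases trim the segment ends and terminal transferase adds untemplated bases at both joints, so the length of the loop depends on the J and V ends that are kept and on what lies between them. The mouse locus has D and J segments in a pair of clusters, in which the first D segment can join J segments of either cluster and the second D segment lies downstream of the first J cluster. Invariant natural killer T (iNKT) cells carry an alpha chain of TRAV11 joined to TRAJ18 and a restricted set of beta V segments, chiefly the Vbeta8 family, and recognise lipids on CD1d.

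A few chains show how the long loops were put together. Each sequence runs 5′ to 3′ over the whole CDR3, with the bases that match neither the V nor the J consensus of these data in capitals. The consensus ends were derived from the chains themselves, so the capitals hold D bases and added bases together. The chains of 10 or more cells, in order of size, were these.
Day 14 CON replicate 1, TRBV19-TRBD1-TRBJ1-4, 98 cells: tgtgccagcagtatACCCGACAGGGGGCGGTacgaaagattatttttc
Day 5 CON replicate 1, TRBV19-TRBD2-TRBJ2-7, 15 cells: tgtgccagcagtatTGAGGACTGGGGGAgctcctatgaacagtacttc
Day 14 KO replicate 2, TRBV13-3-TRBD1-TRBJ2-2, 11 cells: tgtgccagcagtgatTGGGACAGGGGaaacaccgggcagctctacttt
The only long chain found in 2 libraries, day 5 KO replicate 1 and day 14 KO replicate 1, was this one, with 1 cell in each.
TRBV13-1-TRBJ2-1: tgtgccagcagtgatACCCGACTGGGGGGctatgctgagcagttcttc
The longest loops of the series had 19 residues, and 7 chains reached that length. The 19-residue chains not shown here were paired with alpha chains other than TRAV11-TRAJ18. Among them, the TRBV16-TRBJ2-5 chain of day 5 CON replicate 1 matched 19 of the 21 bases of its J consensus. The 3 below show a long part between V and J, up to 22 bases, joined to J ends that matched their whole consensus. The first and second of these were paired with TRAV11-TRAJ18.
Day 14 KO replicate 2, TRBV12-2+TRBV13-2-TRBD2-TRBJ2-1: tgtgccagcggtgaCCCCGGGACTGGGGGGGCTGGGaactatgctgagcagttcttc
Day 14 CON replicate 2, TRBV29-TRBJ2-1: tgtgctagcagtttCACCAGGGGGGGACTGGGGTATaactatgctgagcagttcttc
Day 5 KO replicate 2, TRBV23-TRBJ2-2: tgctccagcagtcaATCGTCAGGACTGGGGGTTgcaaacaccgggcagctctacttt
The iNKT-type chain that was also the most frequent long chain of its library, with 2 cells, completes the set.
Day 5 KO replicate 2, TRBV12-2+TRBV13-2-TRBD2-TRBJ2-5: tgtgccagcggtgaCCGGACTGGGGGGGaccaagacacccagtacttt

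The libraries held 462 to 1357 cells with a beta chain and 301 to 652 distinct chains, from 7683 to 31936 UMIs of productive chains. The median beta chain had 8.5 to 12 UMIs per library, and 0.544% to 2.16% of the cells had a beta chain seen by 1 UMI. No productive gamma or delta chain and no immunoglobulin contig was found in the cells. As these were T cell receptor libraries, that does not show whether B cells or gamma delta T cells were present. The TRAV1-TRAJ33 alpha chain of mucosal-associated invariant T cells was found in 3 cells. There were 21 barcodes present in 2 libraries, none with the same beta chain in both, and 2 of those cells carried a long chain.

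CDR3 lengths ran from 5 to 19 residues with a median of 14 in each library. Of the long chains, 344 had 16 residues, 95 had 17, 16 had 18 and 7 had 19. Just outside the limit, 848 chains had 15 residues. Long chains therefore formed the upper tail of the distribution, with 16-residue loops making up 8.88% of all distinct chains and 17-residue loops 2.45%.

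**Figure D1:**
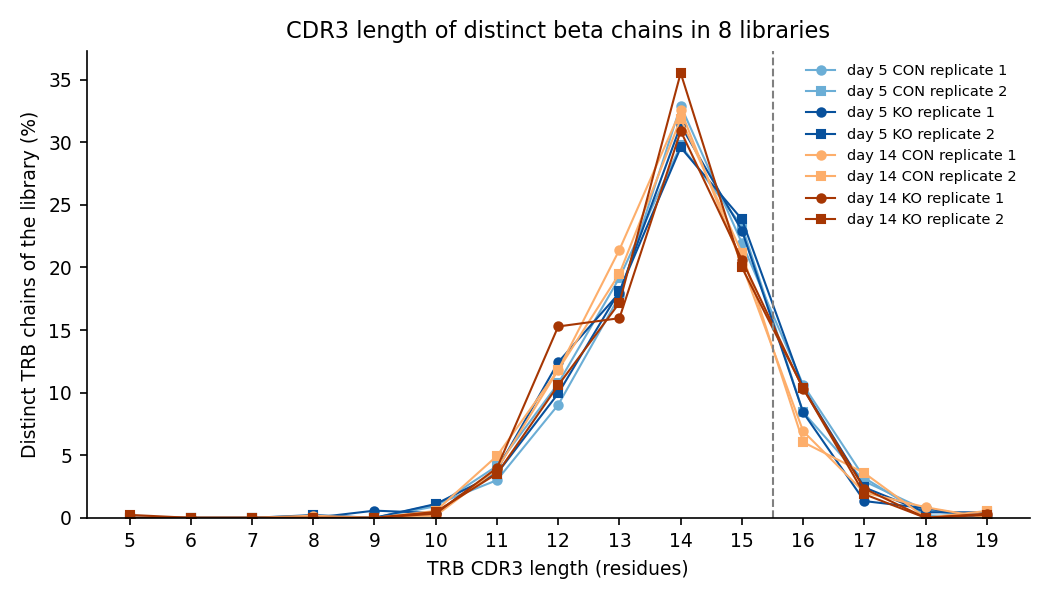
CDR3 length in residues (horizontal axis) against the percentage of each library's distinct beta chains (vertical axis), with 1 line per library, circles for replicate 1 and squares for replicate 2, and a dashed line at the lower limit of the long class. All 8 libraries peak at 14 residues, and the 16-residue share is lowest in the day 14 CON libraries, at 6.91% and 6.04%.

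Long chains made up 9.78% to 14.2% of the distinct chains of a library. The exact permutation tests of days and genotypes could not reach p = 0.05, since the smallest p they allow is 0.0556, or 0.333 within a day, so they do not show whether the groups differed. On day 5, the share of distinct chains with a long CDR3 was 14.2% and 11.96% in the CON libraries and 10.5% and 13.7% in the KO libraries. On day 14, it was 9.78% and 10.2% in the CON libraries and 12.96% and 12.5% in the KO libraries. The KO libraries were thus above the CON libraries on day 14 and overlapped them on day 5.

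The mean share of distinct chains was 12.6% ± 1.67 (SD, n = 4) on day 5 and 11.3% ± 1.60 (SD, n = 4) on day 14, a difference of -1.24 points that was within the spread of libraries (two-sided exact permutation test, p = 0.389, adjusted p = 0.769 over 20 comparisons of shares). With a limit of 15 residues the difference was -3.75 points (exact permutation p = 0.111). Over both days the KO libraries were 0.891 points above the CON libraries (exact permutation p = 0.5). On day 14 the KO mean was 12.7% ± 0.344 (SD, n = 2) and the CON mean 9.97% ± 0.272 (SD, n = 2), a difference of 2.74 points with an exact permutation p of 0.333, which is the smallest that 2 libraries against 2 allow. The binomial 95% intervals (Clopper-Pearson) of these libraries overlapped, from 9.38% to 17.3% in KO replicate 1 and from 7.51% to 12.5% in CON replicate 1, and such intervals cover counting error only. The KO effect differed between days by 3.70 points (exact permutation p = 0.111; the smallest possible value is 0.0556).

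The day 14 separation lay in the loops of 16 residues. Their share was 6.91% and 6.04% in the CON libraries and 10.3% and 10.4% in the KO libraries, with no overlap. The share of 17-residue loops was 2.02% and 3.57% in CON and 2.33% and 1.88% in KO, and these overlapped. Counting only loops of 17 or more residues turned the direction of the day 14 difference, to -1.11 points. In the test over all lengths, edgeR's quasi-likelihood test on distinct chains called 0 of 7 lengths between days and 0 of 7 between genotypes, in both cases 0% of the lengths tested, with 0 at an unadjusted p under 0.05 and 0 by DESeq2. The 16-residue loops had a log2 fold change of -0.19 ± 0.17 (SE) from day 5 to day 14 and of 0.25 ± 0.16 (SE) for KO against CON, with edgeR adjusted p of 0.504 and 0.356.

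**Figure D2:**
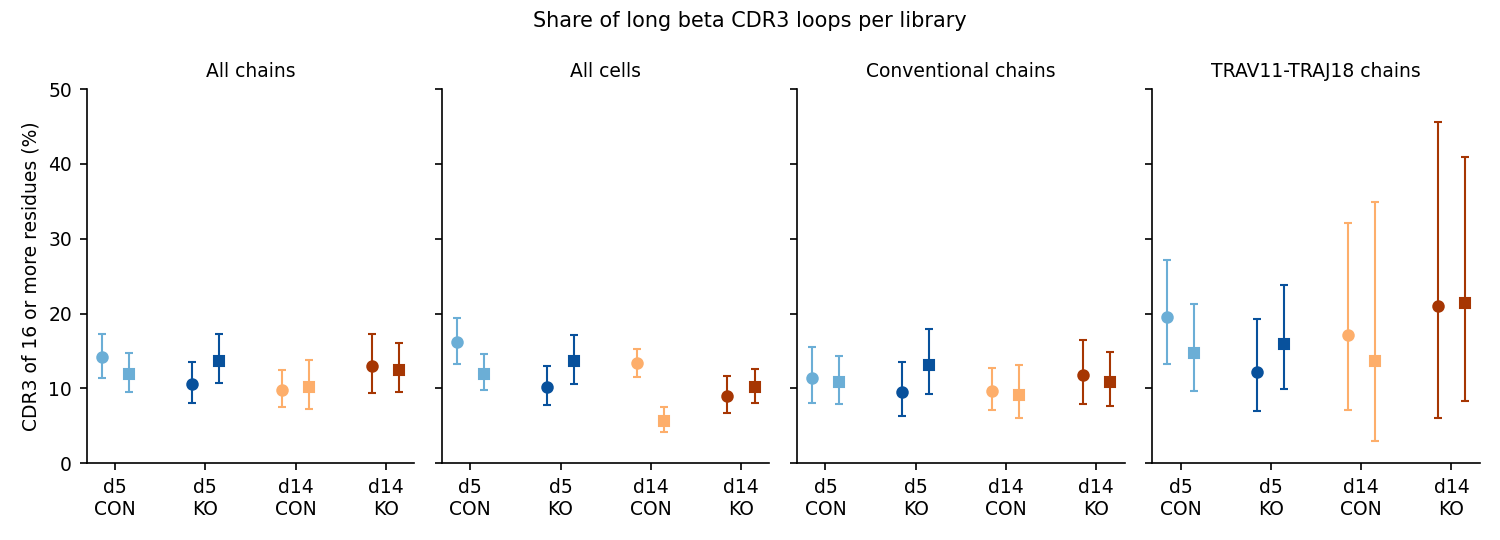
Share of beta chains or cells with a CDR3 of 16 or more residues (vertical axis, percent) by group (horizontal axis), with 1 point per library and its 95% binomial interval, circles for replicate 1 and squares for replicate 2. Per distinct chain the libraries lie between 9.78% and 14.2%, per cell between 5.64% and 16.2%, and the TRAV11-TRAJ18 points lie above the conventional points of the same library.

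Counted per cell, clone size entered the share and the libraries spread further apart. Long chains were carried by 16.2% and 11.97% of the cells of the day 5 CON libraries and by 10.2% and 13.6% of those of the day 5 KO libraries. On day 14 they were carried by 13.3% and 5.64% of the cells of the CON libraries and by 8.97% and 10.2% of those of the KO libraries. The day means were 12.99% ± 2.55 (SD, n = 4) and 9.54% ± 3.18 (SD, n = 4), and the difference of -3.45 points had an exact permutation p of 0.278 (adjusted p = 0.769). With a limit of 15 residues it was -11.1 points, at the smallest exact permutation p, 0.0556 (adjusted p = 0.37).

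A single clone held much of the day 14 count. In day 14 CON replicate 1, the 98-cell TRBV19 chain made up 54.1% of all cells with a long chain. Without the most frequent long chain of each library, an alternative chosen after seeing the data, the day 5 shares per cell were 14.0%, 11.2%, 9.85% and 13.3% and the day 14 shares were 6.59%, 5.40%, 7.96% and 8.82%. All 4 day 14 libraries then lay below all 4 day 5 libraries, with a difference of -4.89 points (exact permutation p = 0.0556, the smallest possible, adjusted p = 0.278). Leaving out the largest long chain lowers the long share by construction, and by more where that chain has more cells. With the same chains left out, the KO minus CON difference per cell turned from -1.03 to 0.668 points.

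Long loops were more frequent among iNKT-type chains than among conventional ones. Cells with a TRAV11-TRAJ18 alpha chain were kept apart from cells with any other alpha chain, called conventional here. Of 646 TRAV11-TRAJ18 chains, 104 were long, and of 2508 conventional chains, 267 were long. In the order day 5 CON, day 5 KO, day 14 CON, day 14 KO, the TRAV11-TRAJ18 shares were 19.6% and 14.7%, then 12.2% and 15.97%, then 17.1% and 13.6%, and then 21.1% and 21.4%. The conventional shares in the same order were 11.4% and 10.8%, then 9.51% and 13.1%, then 9.61% and 9.15%, and then 11.7% and 10.9%. The TRAV11-TRAJ18 share was the higher one in each of the 8 libraries.

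The mean was 16.96% ± 3.45 (SD, n = 8) for TRAV11-TRAJ18 chains and 10.8% ± 1.32 (SD, n = 8) for conventional chains, a difference of 6.19 points (two-sided exact permutation test of the sign of the paired differences, p = 0.0078, the smallest that 8 libraries allow). The number of TRAV11-TRAJ18 chains was as low as 19 in a day 14 library, where the share has a wide interval. This comparison was chosen after seeing the data. Seen from the other side, TRAV11-TRAJ18 cells made up 22.0% ± 14.8 (SD, n = 8) of the paired cells with a long chain and 16.2% ± 13.5 (SD, n = 8) of those with a shorter one, higher in 8 of 8 libraries by a mean of 5.71 points (exact permutation p = 0.0078, adjusted p = 0.0312 over 12 measures; leaving out any library but day 14 KO replicate 2 gave 0.0625, which 7 libraries reach at their smallest p when 3 measures tie). The large SDs follow the days, since the long-chain values were 32.9% to 38.0% in the day 5 libraries and 4.24% to 10.7% in the day 14 libraries.

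Chains of 1 V name were compared in the same way, an alternative that was also chosen after seeing the data. Among chains with the joint name TRBV12-2+TRBV13-2, 58 of 328 TRAV11-TRAJ18 chains and 22 of 190 conventional chains were long. The mean shares over libraries were 19.8% and 11.8%, a difference of 8.003 points, higher in 7 of 8 libraries (exact permutation p = 0.0234). These shares rest on as few as 7 TRAV11-TRAJ18 and 15 conventional chains in a library. Over chains of any V segment, the day 14 KO libraries lay above the CON libraries in both classes. The differences were 5.89 points for TRAV11-TRAJ18 and 1.904 points for conventional chains, each with an exact permutation p of 0.333, the smallest possible. Without possible doublets the TRAV11-TRAJ18 difference was 0.29 points (exact permutation p = 1), and their KO effect moved by 2.68 in place of 8.96 points from day 5 to day 14. The TRAV11-TRAJ18 long share was 15.6% ± 3.07 (SD, n = 4) on day 5 and 18.3% ± 3.68 (SD, n = 4) on day 14, and the conventional share was 11.2% ± 1.49 (SD, n = 4) and 10.3% ± 1.17 (SD, n = 4), both with an exact permutation p of 0.389. With a limit of 15 residues the day differences were 9.31 points for TRAV11-TRAJ18 and -2.88 points for conventional chains (exact permutation p = 0.167 and 0.0556).

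Dividing each CDR3 by the consensus ends showed where the extra bases lay. In long chains, a mean of 14.6 bases matched the V end, 14.1 lay between and 20.3 matched the J end. In other chains, the means were 13.6, 9.25 and 17.9 bases. Of the 8.16 bases by which long chains were longer, 59.1% lay between V and J, 28.4% in the J match and 12.5% in the V match. These are means over 8 libraries, given as a description, because the parts add up to the length that defined the class. The part between V and J held 7 to 26 bases in long chains and grew with each step in length, from 6.34 bases in loops of 12 or fewer residues to 11.5 in those of 15 and 14.0 in the long ones.

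**Figure D3:**
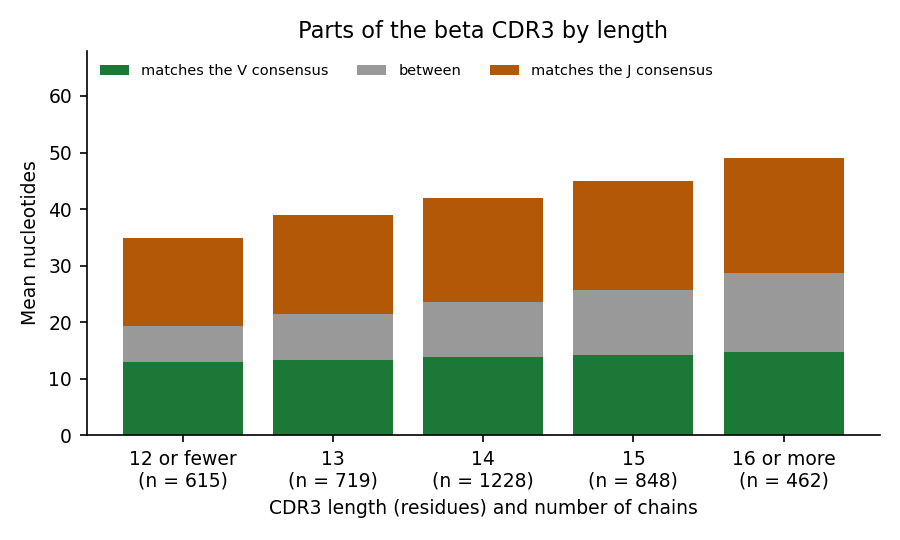
Mean number of nucleotides (vertical axis) in the parts of the CDR3 that match the V consensus, lie between, or match the J consensus, stacked, by CDR3 length in residues (horizontal axis), with the number of distinct chains under each bar. The middle part grows from 6.34 to 14.0 bases, the J match from 15.6 to 20.3 and the V match from 12.96 to 14.7.

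With the number of distinct chains as offset, segment use separated long chains from other chains mainly at D and J. edgeR's quasi-likelihood test, with the library as a block and distinct chains as counts, called 12 of 34 segments at an adjusted p under 0.05, which is 35.3% of the segments tested. Of these, 7 were more frequent in long chains (20.6% of those tested) and 5 less frequent (14.7%). The TRBD and TRBJ segments accounted for 9 of the 12, and V segments for 3 of 20 tested. Because J-matched, D and V-matched bases count toward the loop length that defines the class, these results describe which segments long loops hold and are not independent of length.

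Among J segments, 4 of the 6 tested in the second cluster were more frequent in long chains, 1 was less frequent and TRBJ2-5 did not pass. TRBJ2-3 (chr6:41543223-41543271 in GRCm38) made up 13.8%, 15.4%, 23.6% and 21.0% of the long chains in the day 5 libraries and 13.8%, 24.3%, 15.4% and 15.1% in the day 14 libraries. In other chains it made up 5.63% to 9.91%, so the values did not overlap. Its log2 fold change was 1.14 ± 0.20 (SE), with an edgeR adjusted p of 5.66e-07. TRBJ2-4 had a log2 fold change of 0.87 ± 0.21 (SE), TRBJ2-2 of 0.87 ± 0.28 (SE) and TRBJ2-1 of 0.57 ± 0.20 (SE), with edgeR adjusted p of 0.000346, 0.00854 and 0.0126.

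TRBJ2-7, at the downstream end of the same cluster (chr6:41543810-41543856), went the other way. It was the most used J segment of other chains, at 22.0% to 26.5% of them, and made up 3.77% to 13.8% of long chains, with no overlap. Its log2 fold change was -1.64 ± 0.18 (SE), with an edgeR adjusted p of 8.89e-14. In the first cluster, TRBJ1-1 and TRBJ1-2 were less frequent in long chains and the other 4 tested did not pass. TRBJ1-1 (chr6:41533864-41533911) made up 0% to 5.66% of long chains and 9.19% to 13.6% of other chains, a log2 fold change of -2.20 ± 0.33 (SE) with an edgeR adjusted p of 1.38e-09. For TRBJ1-2 the log2 fold change was -1.58 ± 0.37 (SE), at an edgeR adjusted p of 0.000237.

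The median log2 fold change was 0.72 over the 6 tested Jbeta2 segments and 0.14 over the 6 tested Jbeta1 segments, beside 0.19 over all 34. Each chain has 1 J segment, so lower shares of some J segments raise the shares of the others. These log2 fold changes were not adjusted for that. The share of chains with any Jbeta2 segment was 76.8% ± 4.45 (SD, n = 8) in long and 65.6% ± 2.41 (SD, n = 8) in other chains, higher in 8 of 8 libraries by 11.1 points (exact permutation p = 0.0078, adjusted p = 0.0312, or 0.0625 on leaving out any library but day 14 KO replicate 2). The J segments also differed in the length of the consensus that reaches into the CDR3. It was 20 bases for TRBJ2-7 and 21 for TRBJ1-1 and TRBJ1-2, and 22 for TRBJ2-3 and TRBJ2-4 and 24 for TRBJ2-2. The share of chains that were long was 4.13% for TRBJ2-7, 2.82% for TRBJ1-1 and 4.31% for TRBJ1-2, against 22.7% for TRBJ2-3, 20% for TRBJ2-4 and 19.8% for TRBJ2-2. The order of these shares did not follow the consensus length throughout. TRBJ2-1, with 21 bases, had 16.8% long chains, and the Jbeta1 segments TRBJ1-3 and TRBJ1-5, with 23, had 14.8% and 12.8%. The consensus was built from the chains, so it can differ from the end of the J segment itself, whose length was not compared.

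**Figure D4:**
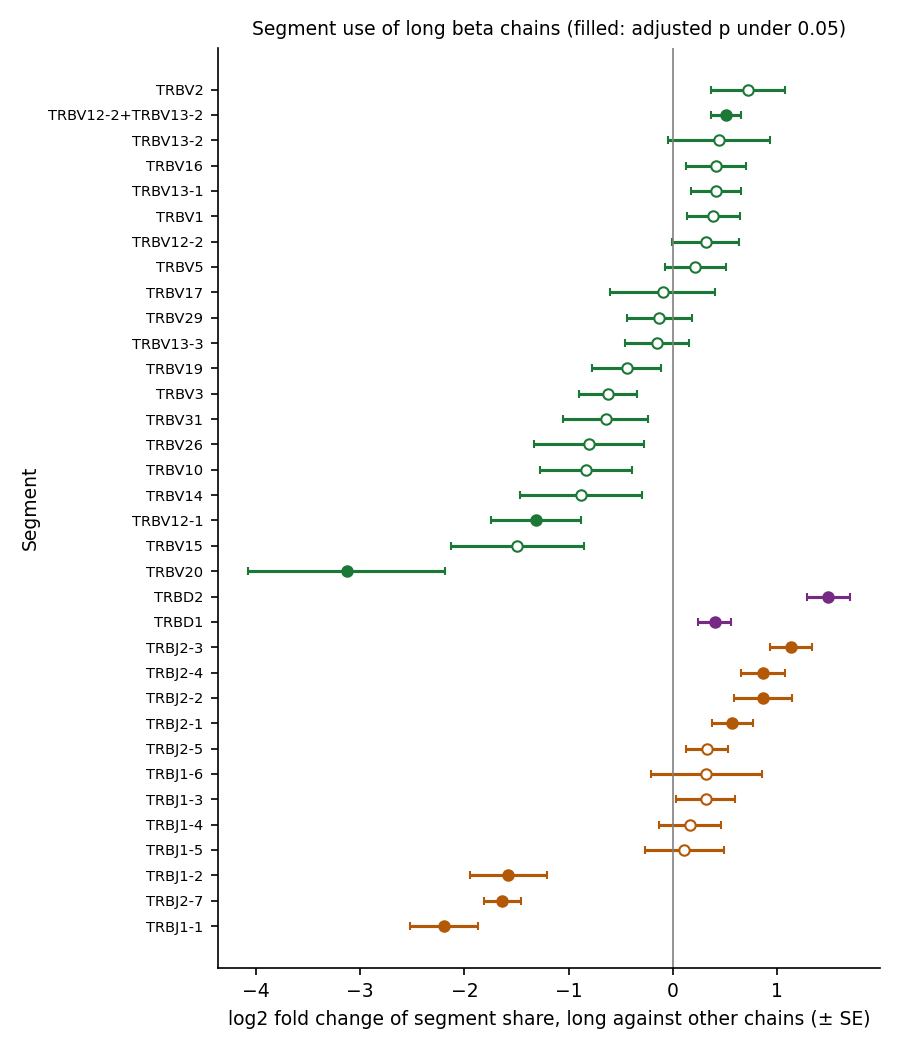
Log2 fold change of the share of each V (green), D (purple) and J (orange) segment in long against other chains (horizontal axis) with its SE from edgeR, 1 point per segment, filled where the adjusted p is under 0.05. TRBD2 and TRBJ2-3 lie farthest to the right, at 1.49 and 1.14, and TRBV20, TRBJ1-1 and TRBJ2-7 farthest to the left among the filled points.

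D segments were named more often in long loops, and the second D segment most of all. The authors' files gave a D name to 39.1% ± 8.81 (SD, n = 8) of long chains and 21.4% ± 2.28 (SD, n = 8) of other chains, higher in 8 of 8 libraries by 17.7 points (exact permutation p = 0.0078, adjusted p = 0.0312, or 0.0625 on leaving out any library but day 14 KO replicate 2). The share rose step by step with length, from 8.62% in loops of 12 or fewer residues through 16.9%, 24.1% and 30.7% to 38.5% in the long ones. D bases lie in the part between V and J, which averaged 14.1 bases in long and 9.25 in other chains. The test of D names is therefore not independent of the length that defined the class. TRBD2 (chr6:41542163-41542176) was named in 11.2%, 21.8%, 29.1% and 12.9% of the long chains of the day 5 libraries and in 13.8%, 24.3%, 30.8% and 11.3% of those of the day 14 libraries, against 4.91% to 7.93% of other chains. Its log2 fold change was 1.49 ± 0.21 (SE), with an edgeR adjusted p of 1.17e-10. For TRBD1 the log2 fold change was 0.41 ± 0.16 (SE), at an edgeR adjusted p of 0.044. That call was lost in 9 of 16 alternative settings, with a highest adjusted p of 0.602 over the edgeR and DESeq2 runs. It was lost with TMM factors, with DESeq2, with a limit of 17 residues and without any 1 of 5 libraries, among others. With 1 library left out, the highest edgeR adjusted p was 0.229, without day 14 KO replicate 2. Without day 5 CON replicate 1, day 5 CON replicate 2, day 5 KO replicate 1 or day 14 KO replicate 1 it was 0.0948, 0.0573, 0.0624 and 0.0603.

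Within the chains that had a D name, TRBD2 made up 47.8% in long loops (85 against 93 with TRBD1) and 30.2% in others (221 against 511). None of the 107 long Jbeta1 chains was called TRBD2, which allows a share of up to 2.804%, and 2 of 1183 other Jbeta1 chains were. TRBD2 made up 63.9% of the named D segments in long Jbeta2 chains and 43.6% in other Jbeta2 chains.

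Bases of the second D segment also lay in long loops that had no D name. The 8 bases most often found between V and J in chains called TRBD2 were CTGGGGGG, read on the coding strand only. They stood in 92.9% of the long chains and 79.6% of the other chains with that call. Among chains without a D name, these bases stood in 57 of 284 long chains, 20.1%, and in 135 of 2682 others, 5.03%. For TRBD1, the most frequent 8 bases were GGACAGGG, and they stood in 3.87% of the long chains without a D name and 2.16% of the others. No chain called for one D segment held the 8 bases of the other. A longer stretch gives more places for any 8 bases to occur, and this was not adjusted for.

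V segments differed less. The joint name TRBV12-2+TRBV13-2, kept here as the authors' files give it, was the most frequent V name of long chains, with 110 of the 462. It made up 10.8% to 32.1% of long chains and 8.56% to 23.0% of others, was higher in long chains in 8 of 8 libraries, and had a log2 fold change of 0.51 ± 0.14 (SE) with an edgeR adjusted p of 0.00479. TRBV12-1, a Vbeta5 segment, was less frequent in long chains, at 8 of 462 against 4.25% of others, with a log2 fold change of -1.31 ± 0.43 (SE) and an edgeR adjusted p of 0.0109. TRBV20 (chr6:41188273-41188977) was found in 1 long chain and 80 others, a ratio of shares of 0.0924 with an exact 95% counting interval of 0.00231 to 0.53 (edgeR adjusted p = 0.00479).

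None of the 3 Vbeta8 segments named singly passed, and their median log2 fold change was 0.42. Of the 5 V segments listed for iNKT cells, 0 passed, with a median of 0.39, beside -0.14 over the 20 V segments tested. The joint name TRBV12-2+TRBV13-2, which passed, was counted in neither list. Its consensus end began with the whole 16-base end of TRBV13-2, a Vbeta8 segment, and differed from that of TRBV12-2. Of the 2 Vbeta5 segments, TRBV12-1 was called and TRBV12-2 was not over all libraries. The joint V name was concentrated in iNKT-type cells, where it made up 58 of 104 long chains, 55.8%, and 49.8% of the others. In conventional cells it made up 8.24% of long chains and 7.50% of others.

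The split of calls depended on the scaling. With TMM factors, edgeR called 3 segments more frequent and 8 less frequent, and the median log2 fold change over all segments moved from 0.19 to -0.06. DESeq2 called 3 and 5, and counting cells in place of distinct chains also gave 3 and 5. TRBD2, TRBJ2-3, TRBJ2-7, TRBJ1-1 and TRBJ1-2 passed under each of these 3 settings. The joint V name, TRBJ2-2 and TRBJ2-1 did not pass under any of them. The calls that TMM factors added were all V segments less frequent in long chains. They were TRBV3, TRBV10 and TRBV15 (edgeR adjusted p = 0.00789, 0.0377 and 0.0164), so V segments weighed more under that scaling. Without TRAV11-TRAJ18 cells 11 segments were called, all among the 12, and TRBJ2-1 was lost. The joint V name stayed called there. This setting kept cells without an alpha chain, so iNKT-type cells whose alpha chain was not found may remain. Among conventional cells alone the joint name made up 8.24% of long chains and 7.50% of others, which was not tested. With a limit of 17 residues, 7 segments were called. TRBJ2-3 then had a log2 fold change of 0.69 (edgeR adjusted p = 0.207) and was not called, nor were TRBV20, TRBJ2-2, TRBV12-1, TRBJ2-1 and TRBD1, with edgeR adjusted p of 0.0817, 0.226, 0.321, 0.321 and 0.395. TRBJ2-4 was not called counting cells (edgeR adjusted p = 0.0916). TRBJ2-1 was also not called without day 14 CON replicate 1 (edgeR adjusted p = 0.104), nor TRBV12-1 without day 14 KO replicate 1 (0.051).

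A difference of segment use between days was found for 1 segment, TRBV12-2 (chr6:41118864-41119364). On day 5 it was in 8 and 5 long chains of the CON libraries and 3 and 3 of the KO libraries, or 10%, 6.41%, 5.45% and 4.84% of long chains, and in 1.74% to 4.49% of other chains. On day 14 it was in 2 and 0 long chains of the CON libraries and 0 and 2 of the KO libraries, while its share of other chains was 3.74% to 7.53%. The values of 0 allow up to 8.11% in CON replicate 2 and 7.69% in KO replicate 1. The change of the long-to-other ratio from day 5 to day 14 was -2.56 ± 0.68 (SE) on the log2 scale, with an edgeR adjusted p of 0.0164, and it was the only call among 34 segments (2.94%). It was not called by DESeq2 (adjusted p = 0.0665) or by edgeR without day 5 CON replicate 1 (adjusted p = 0.121), without day 14 CON replicate 2 (0.177) or without day 14 KO replicate 1 (0.0764). No segment was called for a change of its ratio between genotypes (0 of 34, 0%, by edgeR and by DESeq2, with 1 at an unadjusted p under 0.05). The 1 was TRBV12-2, at -1.43 ± 0.63 (SE) on the log2 scale (edgeR adjusted p = 0.851). With SEs of this size, the lack of calls does not show a lack of change.

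Within the long chains themselves, 20 segments with 20 or more long chains could be compared between groups. edgeR called 0 of them (0%) from day 5 to day 14, with 3 at an unadjusted p under 0.05, and DESeq2 also called 0. The 3 were TRBV3, with a log2 fold change of 1.27 ± 0.50 (SE), TRBV12-2, with -1.56 ± 0.62 (SE), and the joint name TRBV12-2+TRBV13-2, with -0.69 ± 0.32 (SE), at edgeR adjusted p of 0.199, 0.199 and 0.241. The joint name made up 28.2% ± 4.29 (SD, n = 4) of long chains on day 5 and 17.3% ± 7.98 (SD, n = 4) on day 14, which moved with the smaller share of TRAV11-TRAJ18 cells on day 14. That share's part in the result was not tested.

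Between genotypes, edgeR and DESeq2 called 0 of 20 segments in long chains over both days (0%), 0 on day 5 and 0 on day 14, with 0, 0 and 2 at an unadjusted p under 0.05. The 2 were TRBD1, with a log2 fold change of 1.09 ± 0.40 (SE) for KO against CON on day 14, and the joint V name, with 1.03 ± 0.41 (SE), both at an edgeR adjusted p of 0.429. The next smallest p on day 14 belonged to TRBJ2-7, at -1.37 ± 0.68 (SE), with an edgeR adjusted p of 0.498. The smallest p values over both days belonged to TRBV5, at -0.97 ± 0.52 (SE), and TRBV16, at 0.81 ± 0.48 (SE), with an edgeR adjusted p of 0.682 each.

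More long chains had several cells on day 14 than on day 5. On day 5, 10 of 275 long chains had 2 or more cells, and on day 14, 33 of 187 had. By library, the expanded share of long chains was 2.5%, 7.69%, 1.82% and 1.61% on day 5 and 18.97%, 21.6%, 10.3% and 18.9% on day 14, with no overlap between days. For other chains it was 1.03% to 5.57% on day 5 and 18.3% to 26.0% on day 14. Within libraries, the expanded share of long chains was lower by 1.38 points on average, with 4 libraries on either side (exact permutation p = 0.391, adjusted p = 0.586).

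The mean number of cells per long chain was 1.42 ± 0.70 (SD, n = 8) and per other chain 1.55 ± 0.55 (SD, n = 8), and the difference of -0.128 did not pass (exact permutation p = 0.547, adjusted p = 0.729). This average rested on the largest long chain. Without the most frequent long chain of each library, long chains had fewer cells in 8 of 8 libraries by a mean difference of -0.412 (exact permutation p = 0.0078, adjusted p = 0.0234), but leaving out the largest chain of 1 class only lowers that class by construction. Chains of 10 or more cells numbered 3 among long chains and 32 among others.

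**Figure D5:**
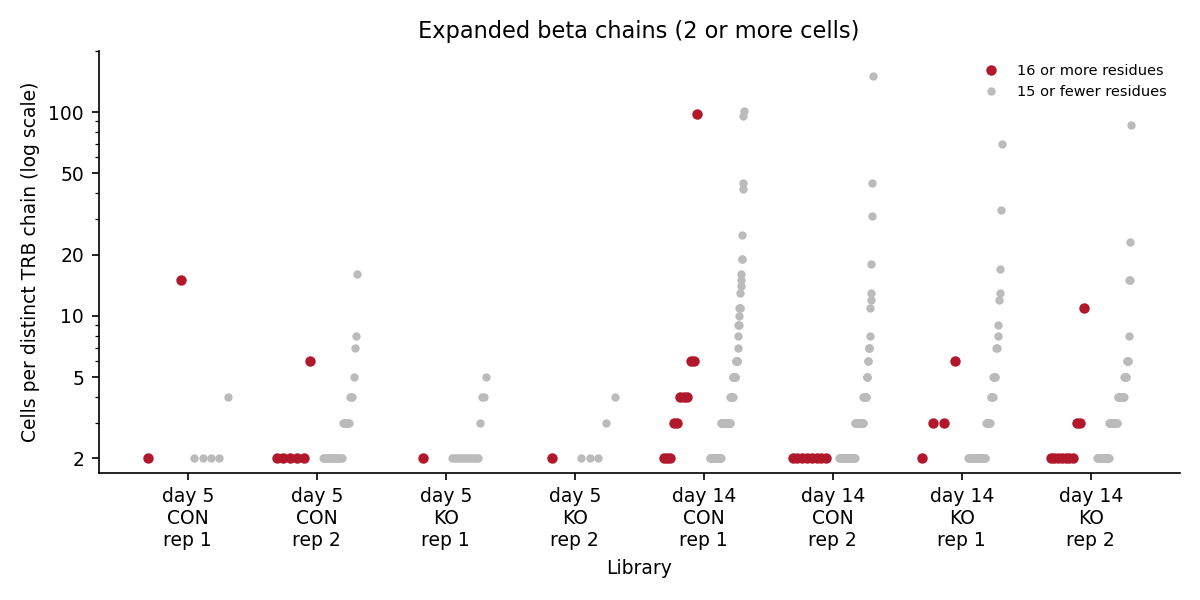
Cells per distinct beta chain (vertical axis, log scale) for chains of 2 or more cells in each library (horizontal axis), long chains in red and other chains in grey, spread sideways only to separate the points. The 98-cell long chain of day 14 CON replicate 1 stands apart from the other long chains, which have at most 15 cells.

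The TRBV19-TRBJ1-4 chain of 98 cells, shown above, was the second most frequent chain of its library, behind one of 101 cells. It made up 7.22% of the cells with a beta chain. All 98 cells had an alpha chain, and in all of them it was the same one, TRAV14D-1 joined to TRAJ24. The TRBV19-TRBJ2-7 chain of day 5 CON replicate 1 was the most frequent chain of its library, with 15 cells and 2.56% of them. Of these, 10 had an alpha chain, and all 10 shared TRAV5D-4 joined to TRAJ5. The TRBV13-3-TRBJ2-2 chain of day 14 KO replicate 2 had 11 cells, each with TRAV4D-4 joined to TRAJ18. The most frequent long chains of the other libraries were smaller, with 6 cells in day 5 CON replicate 2 (TRBV12-2 and TRBJ2-1) and in day 14 KO replicate 1 (TRBV2 and TRBJ2-3), 2 cells in each day 5 KO library, and 8 chains of 2 cells each in day 14 CON replicate 2.

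Long chains of iNKT-type cells had few cells each. Of the 104 TRAV11-TRAJ18 long chains, 1 had 2 such cells and none had more, while 31 of 267 conventional long chains, 11.6%, had 2 or more. Other chains had 1.29% and 12.9% in the same classes. These counts join both days, and 84 of the TRAV11-TRAJ18 but 136 of the conventional long chains came from day 5, when few chains had several cells. On day 5 the expanded long chains were 1 of 84 and 7 of 136, and on day 14 they were 0 of 20 and 24 of 131, which was not tested. Chains such as the TRBJ2-5 chain shown above, where 1 of the 2 cells had the alpha chain sequenced, count as 1 TRAV11-TRAJ18 cell here.

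Sharing of long chains between libraries rested on 1 chain. By nucleotides, 1 of 461 distinct long chains, 0.217% (exact 95% interval 0.00549% to 1.20%), was found in 2 libraries, against 20 of 3390 others, 0.59% (0.361% to 0.91%), so the intervals overlapped. Counted over all possible pairs of chains from different libraries, 1 of 92514 long pairs and 29 of 5059304 other pairs were shared by nucleotides, a higher rate for long chains that comes from a single pair. By V, J and CDR3 residues, it was again 1 of 461 long chains and 44 of 3339 others, 1.32% (0.959% to 1.77%). The intervals cover counting error only. The shared TRBV13-1-TRBJ2-1 chain had a TRAV11-TRAJ18 alpha chain in its day 5 cell and TRAV9N-4 joined to TRAJ27 in its day 14 cell, so the alpha chains found in these cells differed. Leaving out the barcodes present in 2 libraries gave 1 of 459 long chains and 20 of 3369 others by nucleotides. No long CDR3 was encoded by more than 1 nucleotide sequence, of 460 distinct ones, which allows up to 0.652%, whereas 74 of 3293 other CDR3s, 2.25%, were. That contrast was not adjusted for the larger number of other chains.

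The remaining measures compared long with other chains within each library and did not pass after adjustment over the 12 measures. The median UMI count of the beta chain was 8.81 ± 1.69 (SD, n = 8) for long chains and 10.2 ± 1.28 (SD, n = 8) for others (exact permutation p = 0.0938, adjusted p = 0.225). An alpha chain was found in 80.7% of cells with a long chain and 82.4% of other cells (adjusted p = 0.576 from the exact permutation test). The alpha CDR3 had a mean of 13.6 residues in both classes. A second productive beta chain, a sign of possible doublets, was found in 2.95% of cells with long chains and 2.93% of others.

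Leaving out 4 residues at either end, glycine made up 23.6% of the central residues of long loops and 22.0% of those of others (exact permutation p = 0.148, adjusted p = 0.297). Mean hydropathy on the Kyte-Doolittle scale, on which higher values are less water-loving, was -1.04 in long and -1.14 in other loops, higher in 7 of 8 libraries (exact permutation p = 0.0391, adjusted p = 0.117). With 5 residues left out at either end, an alternative chosen after seeing the data, the hydropathy difference was 0.275 in place of 0.101 and passed (exact permutation p = 0.0078, adjusted p = 0.0234), as it also did without day 14 KO replicate 2 (adjusted p = 0.0469), while the glycine difference turned to -1.09 points. Net charge per residue was -0.0889 and -0.089 in the 2 classes. Because a fixed number of residues was left out, long loops kept more central residues than other loops. The measures of central residues were not adjusted for this.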

How the data were processed

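The 8 contig tables were used; the 8 gene expression libraries of the series were not analysed here. The submitters' processing notes name the build GRCm38 (mm10) and, among other tools and without their roles, Cell Ranger 3.1.0. The deposited counts of UMIs and reads per contig are whole numbers without normalization, per the file headers. Contig lengths and segment names were used as the authors deposited them, and the D name is missing for most chains.

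Contigs that the authors marked as cell, high confidence, productive and TRB were kept, and the one with the most UMIs stood for the barcode (9 ties were broken by reads and then by name). Positions of 35 of 36 segments came from RefSeq genes (assembly GRCm38.p6). V and J consensus ends were built from the chains, base by base, while 1 base had a share of at least 0.6. They could be built for 3872 chains, including all 462 long ones.

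Shares were compared with exact permutation tests over libraries, adjusted by Benjamini-Hochberg over 20 comparisons. Long and other chains were compared within libraries by permuting signs over 256 patterns. Segments with 40 or more chains (20 or more long chains within the long class) were tested with edgeR 4.0.16 (glmQLFTest, R 4.3.3) on distinct chains, with the library's number of chains as offset; DESeq2 1.42.0 was an alternative. The segments named passed the threshold (at most 10 per direction); where fewer than 8 passed, the 8 of lowest p were eligible. Named chains were the most frequent long chain of each library, those of 10 or more cells, those in 2 libraries, the longest, and the most frequent TRAV11-TRAJ18 ones. The edgeR code was tested on simulated data. Alternatives covered thresholds, UMI minimum, doublets, scaling, filter and leaving out each library. The members and lists were chosen with earlier results of these data known. Python 3.11.15, pandas 2.3.3, numpy 2.4.6 and scipy 1.17.1 were used.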

Additional observations from a re-analysis of the deposited data

Results flagged for a closer look

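The mean number of cells per long chain on day 14 was 3.12 in CON replicate 1, far from the other 3 libraries of that day, at 1.22 to 1.40; that library holds the 98-cell TRBV19 chain. On day 5, the share of long chains with 2 or more cells was 7.69% in CON replicate 2, above the other 3 libraries of that day, at 1.61% to 2.5%. Both stood out by the gap to the nearest library relative to the range of the day's 4 libraries. In all, 12 such groups of 4 libraries were examined, each of which joins both genotypes, and chance flags about 1 in 20. The long-to-other ratio of TRBV12-2 changed between days by -2.56 on the log2 scale (edgeR adjusted p = 0.0164), on 23 long chains in all.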

How the results depend on the processing

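No comparison of long shares between days or genotypes could pass 0.05 under any setting run, since the smallest exact permutation p was 0.0556, or 0.333 within a day, so these tests say nothing about stability. With a limit of 17 residues, KO minus CON per chain was -0.966 points over both days, -1.11 on day 14 and -0.28 for the change between days; for conventional chains it was -0.452, -0.348 on day 5, -0.556 on day 14 and -0.208 for the change; for TRAV11-TRAJ18 chains it was -1.33, -1.81 on day 14 and -0.955 for the change. With 15 residues, the day difference was -3.75 points per chain, -11.1 per cell and -2.88 for conventional chains, the conventional change was -1.50 and the TRAV11-TRAJ18 KO effect -0.164. Without possible doublets, KO minus CON was 0.29 for TRAV11-TRAJ18 chains on day 14, -0.22 per cell on day 14, -0.444 for conventional chains on day 5 and -1.05 for TRAV11-TRAJ18 chains over both days. Without the most frequent long chain of each library, it was 0.668 per cell, and mean cells per long chain differed by -0.412. At 17 residues, the paired measures were 15.8 points for TRAV11-TRAJ18, 23.5 for D names and 9.78 for Jbeta2, none then past the threshold, 2.61 for cells with an alpha chain and 0.0961 residues for the alpha CDR3. Other changes were -1.09 points for glycine and 0.275 for hydropathy with 5 residues left out at either end, -0.253 points for a second beta chain and -0.00204 for charge without TRAV11-TRAJ18 cells, and -0.00106 for charge with 2 or more UMIs. Counting cells gave 2 lengths and 1 segment of long chains called by edgeR, all lower on day 14: 13 residues (log2 -0.54, adjusted p = 0.0431), 15 residues (-0.59, 0.00192) and TRBV12-2 (-2.68, 0.0427). At 17 residues, 7 segments separated long from other chains. The TRBV12-2 change between days gave 0 calls under DESeq2, per cell and at 17 residues.

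Leaving out 1 library in turn, KO minus CON ran from -2.54 to 0.625 per chain on day 5, from -2.96 to 0.891 per cell, from -3.75 to 3.95 per cell on day 14, and from -1.59 to 1.997 for conventional chains on day 5. The change of the KO effect ran from -1.58 to 6.12 per cell and from -0.0928 to 3.50 for conventional chains, and the conventional day difference from -1.76 to 0.0306. Long minus other ran from -0.278 to 0.00866 cells per chain, 5.26 to 6.40 points for TRAV11-TRAJ18, 15.8 to 19.5 for D names, 9.75 to 11.9 for Jbeta2, -0.0982 to 0.0591 residues for the alpha CDR3, -0.499 to 0.516 points for a second beta chain, 0.0842 to 0.132 for hydropathy and -0.00377 to 0.00319 for charge. With 7 libraries, an adjusted p of 0.0625 is what 3 tied measures at the smallest p give, and 7 of the 8 omissions gave it for TRAV11-TRAJ18, D names and Jbeta2. Called segments numbered 11 to 13, and the TRBV12-2 change 0 to 1.

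Whether replicate numbers pair the libraries could not be shown: with 2 libraries a group, deviations mirror each other, and the correlation, from -0.191 to 0.237, was over 0.1 for 3 of 6 pairs of groups. With the replicate block, the day difference per chain stayed -1.24 points (exact permutation p = 0.5), and the block gave 0 calls for lengths and for segments within long chains. The day 14 TRAV11-TRAJ18 shares rest on 19 to 41 chains per library.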

Other observations

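Long loops of iNKT-type and conventional cells had different shares of TRBJ2-3 and TRBJ2-7, given here without a test as shares of distinct chains pooled over days, whose mix of both classes differs. TRBJ2-3 made up 8.65% of 104 long TRAV11-TRAJ18 chains and 7.56% of the shorter ones, but 21.3% of 267 long conventional chains and 8.34% of the shorter ones. By day, it made up 7 of 84 and 2 of 20 long TRAV11-TRAJ18 chains and 31 of 136 and 26 of 131 long conventional chains on day 5 and day 14. TRBJ2-7 made up 11.5% of long and 20.8% of shorter TRAV11-TRAJ18 chains, and 6.37% and 24.0% of conventional ones. TRBD2 was named in 26.9% of long and 7.20% of shorter TRAV11-TRAJ18 chains, and in 17.98% and 6.29% of conventional ones. TRBV1 made up 13.5% and 6.83% of the TRAV11-TRAJ18 chains and 8.24% and 7.05% of the conventional chains.

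A pair of long chains from different libraries, chosen after their values were seen, had the same TRBV3 end and the same 14 bases between V and J, but different J segments. They are shown in the same way as the chains above.
Day 14 CON replicate 1, TRBV3-TRBJ2-3, 4 cells: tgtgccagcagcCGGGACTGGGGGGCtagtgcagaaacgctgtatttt
Day 14 KO replicate 1, TRBV3-TRBJ2-4, 3 cells: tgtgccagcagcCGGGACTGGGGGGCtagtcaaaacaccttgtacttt
Among long chains with 10 or more bases between V and J, this was the only one of 436 combinations of V end and middle part that was joined to more than 1 J segment, against 6 of 1588 among other chains. Where an alpha chain was found, both chains had TRAJ27, with TRAV3-3 in 1 cell of the first and TRAV8-1 in 2 cells of the second. The TRBV19-TRBJ2-1 long chain of 6 cells in day 14 CON replicate 1 also had TRAV3-3 joined to TRAJ27, in 1 cell. TRAJ27 was found with other long chains too, and its share over all cells was not compared.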
